A study of Caenorhabditis elegans with 2 samples.

Results

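The genes described here are 7 genes of cholinergic identity and of its regulators in Caenorhabditis elegans: unc-17, cha-1, cho-1, unc-42, lim-4, unc-3 and ttx-3. They were taken by name from the Ensembl annotation, where each symbol matched 1 gene, and are 7 of 19973 protein-coding genes on the nuclear chromosomes. Sites of the homeodomain factor CEH-24 were located by ChIP-seq, the sequencing of DNA that is precipitated together with a chromatin protein, in 2 biological replicates of the transgenic strain OP673 (unc-119 (tm4063) III; wgIs673). The transgene adds GFP and FLAG to the C terminus of CEH-24, and an anti-GFP antibody was used on late embryos taken whole, of both sexes, 5 h after synchronization by egg bleaching. Both samples belong to 1 group and no second condition was analysed here, so the values say where DNA was recovered and how highly each site ranked, not a change. In whole embryos, few cells with a strongly bound site and many cells with a weakly bound site cannot be told apart.

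Cholinergic neurons make acetylcholine with choline acetyltransferase, load it into synaptic vesicles with a vesicular transporter and take choline back up with a high-affinity transporter. In C. elegans these proteins are encoded by cha-1, unc-17 and cho-1. Homeodomain and other transcription factors switch on such genes neuron class by neuron class, and the sublateral motor neurons of the head, in which ceh-24 is expressed, are cholinergic. NK-2 class factors such as CEH-24 are known to prefer sites with the core AAGTG.

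Every peak with its summit inside a gene or within 5000 bp of it was taken. Relaxed lists, in which background is kept beside peaks so that the reproducibility of replicates can be judged (the irreproducible discovery rate, IDR), contained 30000 pooled peaks, 30000 peaks of replicate 1 and 28119 of replicate 2. Their median signals were 34.7 pooled, 22.1 in replicate 1 and 21.6 in replicate 2. The scale thus differs between lists, and signals can be compared only within 1 list. Only 420 pooled, 228 replicate 1 and 729 replicate 2 peaks had a deposited q-value of 0.05 or less, and 276 optimal peaks passed the IDR threshold. Most entries of the relaxed lists, which are called peaks here as well, passed neither limit. Read depth is unknown for all of them, so beside the deposited q-value no error can be attached to the signal of a single peak.

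The sequences at 6 of the sites described below are shown. All are on the minus strand of ce11, the coding strand of the gene named, 5′ to 3′. In the sequences at unc-42, lim-4 and ttx-3 summits of pooled peaks, capitals mark the NK-2 class site TNAAGTG or its reverse complement. Such sites near the pooled summits at 3613079 and 11763878 are not printed, and binding to any marked word was not tested. In the intron that unc-17 and cha-1 share, capitals mark a COE palindrome (TCCC and GGGA with 2 bases between them), a word of the kind that COE factors such as UNC-3 bind. The last pair, at the highest peaks of a single replicate, has no capitals. The unc-17 stretch is limited to the 108 bases of the coding exon that fall near the summit and shows no AAGTG, but the full 201 bp around that replicate 2 summit hold 1. The 201 bp of the lim-4 intron hold none. The sequences were read from the RefSeq genome WBcel235, which is the same build as ce11.
unc-42 promoter, chrV:9769461-9769661: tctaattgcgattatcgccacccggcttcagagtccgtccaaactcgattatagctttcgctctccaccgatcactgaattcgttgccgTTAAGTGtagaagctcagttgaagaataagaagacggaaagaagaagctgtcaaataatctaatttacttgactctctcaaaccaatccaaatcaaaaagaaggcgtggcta
lim-4 downstream, chrX:3867841-3868041: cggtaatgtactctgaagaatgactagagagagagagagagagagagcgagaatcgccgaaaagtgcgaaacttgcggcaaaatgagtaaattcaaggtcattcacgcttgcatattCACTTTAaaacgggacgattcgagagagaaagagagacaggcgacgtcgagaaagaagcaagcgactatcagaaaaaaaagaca
ttx-3 internal, chrX:11766436-11766636: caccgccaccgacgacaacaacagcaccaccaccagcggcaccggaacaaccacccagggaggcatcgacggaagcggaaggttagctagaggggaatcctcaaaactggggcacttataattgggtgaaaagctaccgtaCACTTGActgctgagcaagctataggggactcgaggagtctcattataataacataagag
unc-17 and cha-1 intron, chrIV:3621911-3622170: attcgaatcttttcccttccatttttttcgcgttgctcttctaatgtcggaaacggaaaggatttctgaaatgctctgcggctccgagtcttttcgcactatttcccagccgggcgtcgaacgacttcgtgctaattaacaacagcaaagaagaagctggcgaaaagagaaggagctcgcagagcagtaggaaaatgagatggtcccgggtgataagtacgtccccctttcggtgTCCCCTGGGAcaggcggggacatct
unc-17 last coding exon, chrIV:3618503-3618610: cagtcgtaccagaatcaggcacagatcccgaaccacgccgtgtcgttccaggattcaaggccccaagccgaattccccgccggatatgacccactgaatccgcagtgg
lim-4 intron, chrX:3870914-3871114: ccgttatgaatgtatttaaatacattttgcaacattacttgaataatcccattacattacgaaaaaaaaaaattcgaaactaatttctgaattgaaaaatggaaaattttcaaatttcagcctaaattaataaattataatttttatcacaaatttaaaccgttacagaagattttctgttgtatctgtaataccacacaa

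All 7 genes had a pooled peak of some signal within 5000 bp, as did 91.7% of all 19973 protein-coding genes. None (0 of 7) had an optimal peak there, against 780 protein-coding genes (3.91%), and 1 of 7 had one within 10000 bp, against 6.39%. None (0 of 7) had a pooled peak with a q-value of 0.05 or less, against 5.71% of protein-coding genes, and 0 of 7 had such a peak in replicate 1, against 3.29%. With percentages this low, a count of 0 among 7 genes does not set them apart. Among the 276 highest peaks of a single replicate, replicate 1 had none at the 7 genes, against 3.81% of protein-coding genes with one, and replicate 2 had 1, shared by 2 of the 7 genes, against 3.72%. The windows held 34 pooled peaks in 99.6 kb, or 3.42 per 10 kb, against 2.99 per 10 kb over the nuclear genome. Their signal values, which are the authors' own, ran from 27.1 to 59.2 with a median of 36.1, against a median of 34.7 over all pooled peaks. The lowest optimal peak had 102, so every peak at these genes lay below it. The q-values ran from 0.361 to 0.927. Among the 3000 highest of the 30000 pooled peaks were 3 of the 34 (8.82%). No tRNA, snoRNA, snRNA or rRNA gene lay within 250 bp of any of the 34 summits. The share of all pooled peaks without such a gene is not given here, so this does not set the 34 apart.

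**Figure D1:**
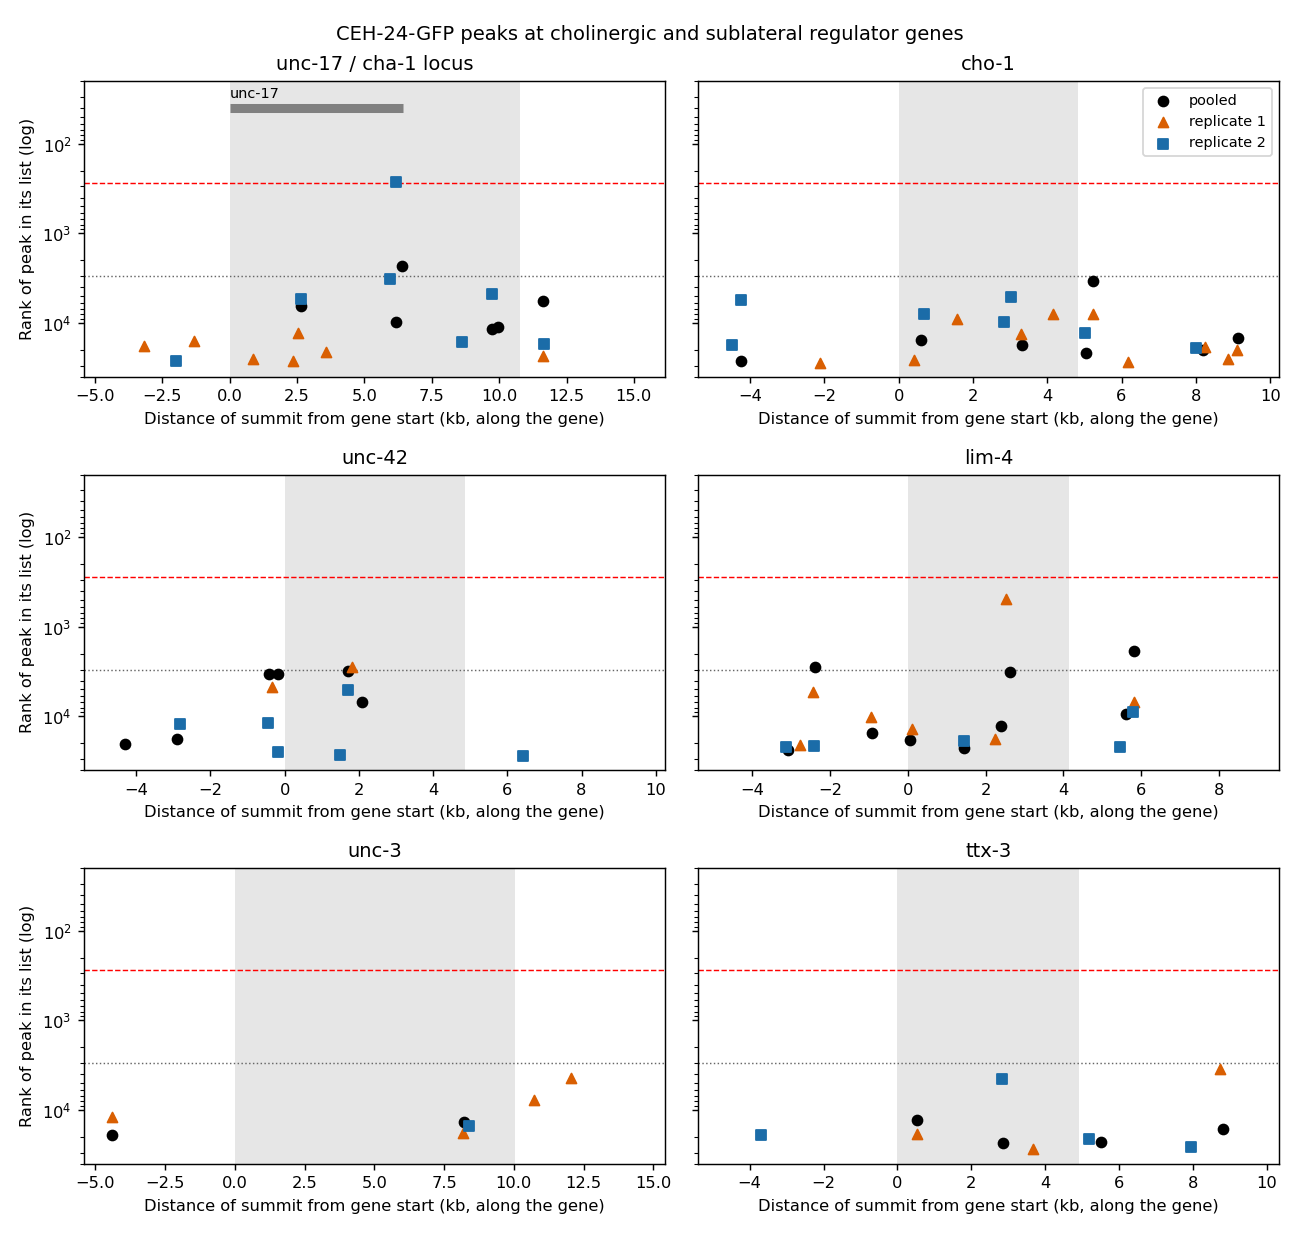
Rank of each peak in its own list (log axis, highest at the top) against the distance of its summit from the gene start, along the gene, for the 6 loci. Circles are pooled peaks, triangles replicate 1 and squares replicate 2, grey marks the gene (cha-1 in the shared locus, with unc-17 as a bar), the dashed line is rank 276 and the dotted line rank 3000. Only 1 replicate 2 peak, in unc-17, lies above the dashed line, and no pooled peak does.

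The order of the genes by their highest pooled signal was lim-4 (59.2, rank 1883), unc-17 and cha-1 (56.7, rank 2323, a peak that both windows hold), unc-42 (53.4, rank 3091), cho-1 (52.4, rank 3382), ttx-3 (36.4, rank 13090) and unc-3 (35.7, rank 13828). The first 5 genes lay above the median of all protein-coding genes with a pooled peak (45.7), with lim-4 alone above the upper quartile (56.8), and the last pair lay below the lower quartile (37.2). Window length was not matched in this comparison. The replicates did not keep this order of the genes. In replicate 1 the highest peak was at lim-4 (signal 48.1, rank 485), followed by unc-42 (34.2, rank 2815), ttx-3 (32.5, rank 3543), unc-3 (31.1, rank 4377), cho-1 (26.8, rank 7890) and unc-17 and cha-1 (23.3, rank 12888). In replicate 2 the unc-17 and cha-1 peak came first (58.5, rank 266), followed by ttx-3 (30.03, rank 4523), unc-42 (29.2, rank 5081), cho-1 (29.1, rank 5192), lim-4 (24.95, rank 8965) and unc-3 (21.02, rank 15065). The first gene in each replicate was thus near the end of the order in the other replicate. The highest peak of unc-42 exceeded that of 71.04% of protein-coding genes in the pooled list, 71.98% in replicate 1 and 59.4% in replicate 2. Of the 7 genes it was the only 1 above the middle of all protein-coding genes in each of these 3 lists. The share of all protein-coding genes for which this holds is not given here, so it does not set unc-42 apart. The pooled list is also made from the same reads as the replicates.

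**Figure D2:**
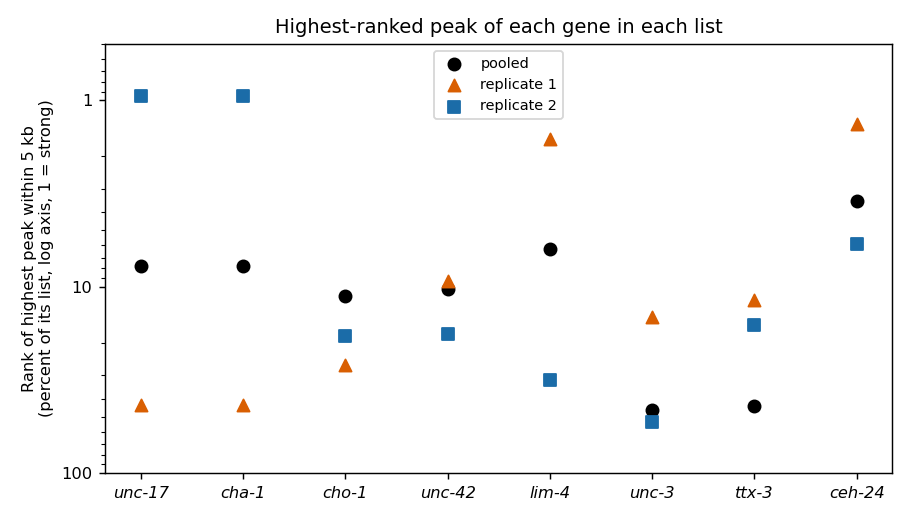
Rank of the highest peak within 5 kb of each gene, as a percent of the list's length (log axis, strongest at the top), in the pooled list (circles), replicate 1 (triangles) and replicate 2 (squares), with ceh-24 itself for comparison. At unc-17 and cha-1 the replicates lie at 42.96% and 0.946%, and at lim-4 at 1.62% and 31.9%, while unc-42 lies at 9.38% and 18.1%.

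**Figure D3:**
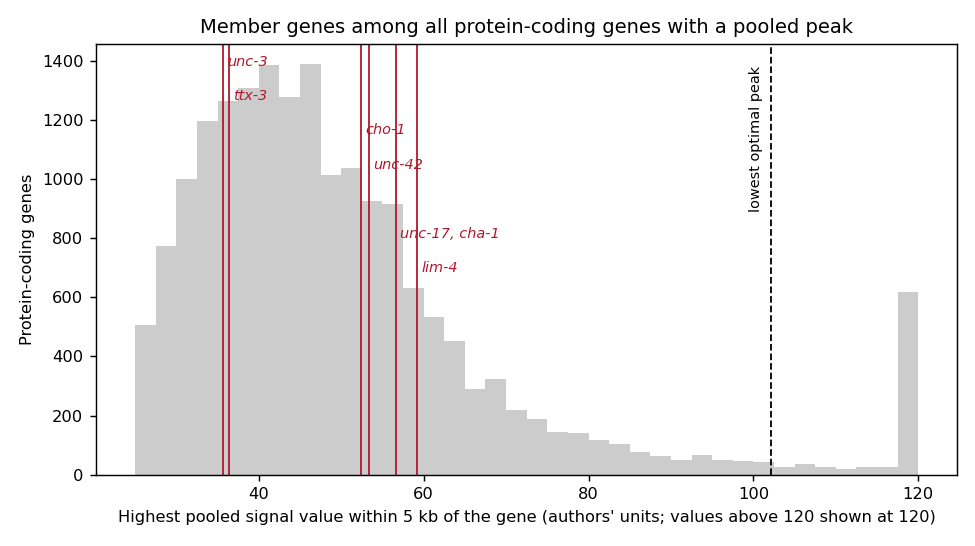
Highest pooled signal value within 5 kb (x axis, the authors' units) of all protein-coding genes with a pooled peak (grey bars, number of genes; the last bar also holds all higher values), with the 7 genes as red lines. All 7 lie between 35.7 and 59.2, below the lowest optimal peak at 102 (dashed line).

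The genes for acetylcholine synthesis and loading, cha-1 (WBGene00000481, IV 3613931 to 3624697) and unc-17 (WBGene00006756, IV 3618259 to 3624699), share their first part, and the rest of unc-17 lies in an intron of cha-1. They cannot be separated by nearby peaks, and together their windows held 6 pooled peaks. The highest pooled peak (IV 3618049 to 3618544) had its summit at 3618297 in the 3′ UTR of unc-17, and a second one, with a signal of 40.02, at 3618524 in the last coding exon. Replicate 2 had a peak there with a signal of 58.5, rank 266 and a q-value of 0.00942, and its summit at 3618510 lay in the last coding exon, 6189 bp downstream of the start of unc-17. Replicate 1 had no peak that overlapped either pooled peak. This is the only peak of either replicate list at the 7 genes with a q-value of 0.05 or less. It gave 1 of 6 separate loci (16.7%) in replicate 2, against 8.5% of protein-coding genes with such a peak, and rests on 1 library. The 201 bp around its summit have a GC content of 47.8% and hold 1 AAGTG, and those around the highest pooled summit have 26.4% and also hold 1. The 108 bases of coding exon shown above have 59.3%.

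In an intron of both genes a pooled peak at 3622070 was found in both replicates, 2629 bp downstream of the start of unc-17. It had a pooled signal of 44.6 (rank 6557), with 23.3 in replicate 1 (summit 85 bp away) and 28.8 in replicate 2 (11 bp away), and a pooled q-value of 0.682. Within its interval (IV 3621822 to 3622317) lay the COE palindrome, at 3621926 to 3621935, 139 bp from the summit. Of the 34 intervals at these genes this was the only 1 that held the word, against 0.27% of all pooled intervals. Within 100 bp of the summit it was at 0 of the 34, against 0.107% of all pooled peaks. The word was found once more in the window, at 3627664 to 3627673, upstream of the gene start and 5599 bp from the nearest pooled summit. There it lay inside a replicate 1 peak (IV 3627646 to 3628115, signal 20.7), 212 bp from its summit. It was absent from the windows of the other 5 genes. Only 1 other pooled peak at this locus was found in both replicates, at 3613079, 852 bp beyond the end of cha-1. It had 46.05 pooled (rank 5763), 18.5 in replicate 1 (rank 23502 of 30000) and 19.9 in replicate 2 (rank 17259 of 28119). Its summit lay 7 bp upstream of the start of another gene, ltah-1.2. A TGAAGTG lay 79 bp from that summit. No pooled summit lay within 5000 bp upstream of unc-17 and cha-1, and the nearest one downstream of the unc-17 start was that at 3622070. Replicate 1 had upstream summits at 1327 and 3182 bp from the unc-17 start (signals 21.6 and 20.7) and replicate 2 had 1 at 1976 bp (16.2), none of which matched a peak of the other replicate.

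The choline transporter gene cho-1 (WBGene00000501, IV 13209730 to 13214566) had 7 pooled peaks. Of these, 5 overlapped peaks in both replicates, the highest number among the 7 genes, and 2 of the 5 overlapped the same replicate peaks. None of the 5 had summits within 100 bp in both replicates. The highest (IV 13209080 to 13209575, summit 13209328) had a signal of 52.4, with 26.8 in replicate 1, at the same base, and 22.2 in replicate 2, 210 bp away. It lay 402 bp beyond the 3′ end of cho-1, in a coding exon of the neighbouring gene C48D1.9 and 338 bp from the start of that gene. The next highest, 4291 bp downstream of the gene, had 35.04 pooled and 19.8 in replicate 1, with no match in replicate 2. Nearest to the start of cho-1 was an intronic peak 599 bp downstream (34.2 pooled, 17.8 in replicate 1, 25.9 in replicate 2). Its signal was close to the median of all pooled peaks. The one pooled peak upstream of cho-1, 4245 bp away, had 27.1 pooled (rank 26709) and 28.5 in replicate 2 (rank 5593), with no match in replicate 1.

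At unc-42 (WBGene00006778, V 9764534 to 9769391), which encodes a paired-class homeodomain factor of head neurons, 4 of 6 pooled peaks overlapped peaks in both replicates. They lay in 2 groups, upstream of the gene start and inside the gene. Upstream of the start were summits at 9769561 (170 bp upstream, signal 52.4) and 9769811 (420 bp upstream, 52.6). The intervals of this pair overlapped the same peaks of replicate 1 (30.7, rank 4659, summit 340 bp upstream) and replicate 2 (22.8, rank 11849, summit 457 bp upstream). Replicate 2 also had a lower peak (16.8, rank 24826) with its summit at 9769561 itself. The site TTAAGTG in the unc-42 promoter sequence above, at 9769566 to 9769572, lay 8 bp from that summit. The annotated RNA gene F46B6.18 lay 17 bp from the same summit. The highest peak of the gene (V 9767427 to 9767922, summit 9767675) had 53.4 pooled, 34.2 in replicate 1 (88 bp away) and 29.2 in replicate 2 (4 bp away). Its summit was in a coding exon, 59 bp downstream of the start of another annotated unc-42 transcript. The remaining peak found in both, in an intron (9767311, 43.9), overlapped the same replicate peaks. All replicate q-values at unc-42 were 0.445 or more. The other pooled peaks lay 2902 and 4308 bp upstream at the gene F46B6.2, with signals of 32.5 and 30.8, and neither was found in both replicates.

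At lim-4 (WBGene00002987, X 3869404 to 3873545), a LIM homeodomain gene, the window held 9 pooled peaks (6.36 per 10 kb), the most of the 7 genes. The highest (X 3867493 to 3867988, summit 3867741) lay 1663 bp downstream of the gene, with 59.2 pooled, 27.7 in replicate 1 and 24.95 in replicate 2, each summit 15 bp away. Its neighbour at 3867941 (40.3 pooled), which overlapped the same replicate peaks, had a TAAAGTG on the plus strand 20 bp from the summit, printed above as its reverse complement. The annotated RNA gene ZC64.9 contains this second summit and lies 15 bp from the first. Upstream, a peak at 3875946, 2401 bp from the start and inside the RNA gene ZC64.6, had 54.6 pooled (rank 2811). It had 29.6 in replicate 1 (rank 5407, 34 bp away) and 18.04 in replicate 2 (rank 21551 of 28119, q-value 0.891, 1 bp away). A gene annotated as ncRNA was within 100 bp of 4 of the 34 summits (11.8%), of which 3 were at lim-4, against 4.28% of all pooled peaks. An intronic pair at 3870927 and 3871142 had 52.9 and 36.5 pooled and matched the highest replicate 1 peak of all 7 genes (48.1, rank 485, q-value 0.137). Replicate 2 had no peak that overlapped either. The lim-4 intron sequence above, centred on the replicate 1 summit, is 23.4% GC. At the start of lim-4, the nearest summit lay 62 bp downstream in the 5′ UTR, with 32.1 pooled and 22.8 in replicate 1, and no match in replicate 2.

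By their highest pooled peak, unc-3 and ttx-3 were the lowest of the 7 genes, which did not hold in replicate 1, where both were above cho-1, unc-17 and cha-1, nor for ttx-3 in replicate 2. The gene unc-3 (WBGene00006743, X 14773538 to 14783568) encodes a COE factor that controls cholinergic identity of ventral cord motor neurons. Its window of 20.03 kb held 2 pooled peaks, or 0.998 per 10 kb, the fewest of the 7 genes. A peak in a coding exon 8210 bp downstream of the start had 35.7 pooled, 20.6 in replicate 1 and 21.02 in replicate 2. The other, 4417 bp upstream in an intron of Y16B4A.2, had 31.6 pooled and 23.8 in replicate 1, with no match in replicate 2. The highest replicate 1 peak of the window (31.1, rank 4377) lay 2008 bp downstream of the gene and was matched by no pooled peak.

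The gene ttx-3 (WBGene00006654, X 11764456 to 11769378) encodes a LIM homeodomain factor known for its role in the cholinergic interneuron AIY. None of its 4 pooled peaks overlapped peaks in both replicates. An intronic peak 531 bp downstream of the start had 36.4 pooled and 20.5 in replicate 1. In an intron of the neighbouring gene lact-7, 3880 bp downstream of ttx-3, a peak had 33.6 pooled (rank 16317) and 32.5 in replicate 1 (rank 3543). The peak at 11766536 (X 11766288 to 11766783), in an intron of ttx-3, had 28.7 pooled (rank 23698, q-value 0.912). It had 30.03 in replicate 2 (rank 4523) and no match in replicate 1. Here a TCAAGTG lay 44 bp from the summit, shown above as its reverse complement, and another TCAAGTG lay 54 bp from the summit at 11763878 (29.2 pooled, 18.2 in replicate 2), in an intron of lact-7. The optimal peak closest to any of the 7 genes lay 6.505 kb from ttx-3 (X 11757703 to 11758198, signal 127), outside its window and 37 bp from a tRNA gene. The next closest lay 21.3 kb from unc-3, 15 bp from a tRNA gene, and those of the other genes 88.96 kb or more away.

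The summit was inside one of the 7 genes for 16 of the 34 pooled peaks, upstream for 9 and downstream for 9. For 18 of the 34 the nearest protein-coding start was that of one of these genes. The windows were drawn around the genes and no share over all peaks is given here, so these counts do not set the 34 apart. The 34 intervals, each 496 bp wide, overlapped into 27 separate regions. Of the 34, 16 overlapped a peak in both replicates (47.1%), against 40.5% of all 30000 pooled peaks, 8 in replicate 1 only, 9 in replicate 2 only and 1 in neither. Because neighbouring peaks can share a match, the 16 rested on 12 different peaks of replicate 1 and 12 of replicate 2. Recurrence followed the rank. It was 7 of 9 peaks among the 6000 highest, against 78.9% of all pooled peaks there, and 9 of 25 below, against 30.9%. Pooled peaks are made from the same reads as the replicate peaks, so such overlap is partly fixed in advance. With summits required to lie within 100 bp of each other, 6 of the 34 were found in both (17.6%), against 15.6% of all pooled peaks. These were 2 at unc-42 (9767675 and 9769811), 2 at lim-4 (3867741 and 3875946), the shared intron of unc-17 and cha-1 (3622070) and the peak at ltah-1.2 (3613079). The replicate 2 match at 3875946 (rank 21551 of 28119) and the replicate 1 match at 3613079 (rank 23502 of 30000) were low in their lists.

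**Figure D4:**
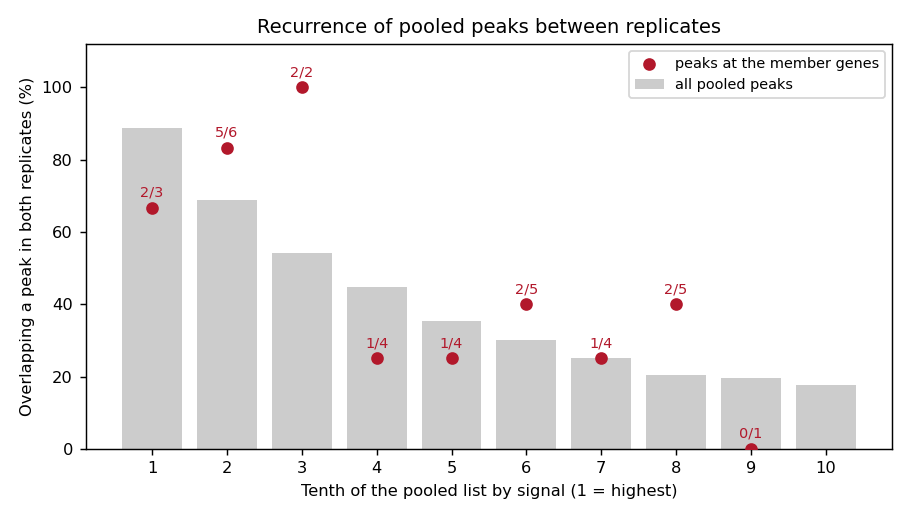
Share of pooled peaks that overlap a peak in both replicates (y axis, percent), in 10 equal parts of the pooled list from highest to lowest signal (x axis), for peaks at the 7 genes (red points, with the counts) and all pooled peaks (grey bars). The share of all peaks falls along the list, and the points scatter around it on small counts, with 2 of 3 among the 3000 highest peaks and 5 of 6 among the next 3000.

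The site TNAAGTG, searched on both strands, lay within 100 bp of 5 of the 34 pooled summits (14.7%), against 9.08% of all pooled peaks, and the core AAGTG, which is part of it, within 100 bp of 16 (47.1%), against 36%. With 34 peaks these counts are small, and 3 of the 5 peaks with TNAAGTG were at unc-42 or ttx-3. The mean GC content of the 201 bp windows was 37.9% at the 7 genes, against 35.9% over all pooled peaks. Across the whole windows TNAAGTG occurred between 4 times (unc-17) and 17 times (unc-3). None of the 4 at unc-17 and none of the 17 at unc-3 lay within 100 bp of a pooled summit of that gene. The window of unc-3 held only 2 pooled summits, so this does not set unc-3 apart.

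Other genes of acetylcholine signalling and of neuron identity were taken from 2 further lists. A list of 20 pathway genes (acetylcholinesterases, which break down acetylcholine, and receptor subunits, receptor assembly factors and muscarinic receptors) had 19 in the annotation, with the symbol unc-74 unmatched. A list of 15 transcription regulators was matched in full. Within 5000 bp, 0 of 19 and 0 of 15 had an optimal peak, against 3.91% of protein-coding genes, and 0 of 19 and 0 of 15 had a pooled peak at a q-value of 0.05 or less, against 5.71%. At these percentages, counts of 0 in lists of this size do not set them apart. A pooled peak among the 3000 highest lay in the windows of 3 of the 7 genes (a peak shared by unc-17 and cha-1, and lim-4), 4 of 19 pathway genes and 4 of 15 regulators, against 28.4% of all protein-coding genes. The median of the highest pooled signal was 53.4 for the 7 genes, 46.2 for the pathway genes and 45.9 for the regulators, against 45.7 for all protein-coding genes with a pooled peak. These medians count 1 peak shared by unc-17 and cha-1 for each gene, and likewise 1 shared by ace-3 and ace-4 (37.2). They were not matched for window length, which ran from 14.1 to 20.8 kb at the 7 genes, so they do not set the 7 genes apart. The highest pathway genes were ace-1 and ace-2, for acetylcholinesterases (71.5 and 69.3), lev-1, for a nicotinic receptor subunit (63.5), and ric-3, for a receptor chaperone (62.9). The ace-1 peak had 28.3 in replicate 1 and 35.4 in replicate 2, and its summit lay 2331 bp downstream of ace-1 and 468 bp from the start of sur-7. The ace-2 peak was intronic, with 31.4 in replicate 1 and 41.5 in replicate 2. The lev-1 peak lay 4329 bp downstream of lev-1 and 713 bp from the start of nas-14, with 45.2 in replicate 2 and no match in replicate 1. The ric-3 peak lay 1661 bp upstream of ric-3 and 857 bp from the start of cdgs-1, with 34.2 in replicate 1 and 34.7 in replicate 2.

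Among the regulators, cfi-1, for an ARID domain factor, had 63.9 pooled, 24.2 in replicate 1 and 49.9 in replicate 2. The lowest replicate 2 q-value in its window was 0.0246, the only one of the 15 at 0.05 or less (1 of 15, against 8.5% of protein-coding genes). Its summit lay 4842 bp downstream of cfi-1 and 68 bp from the start of the histone gene his-68. The homeobox gene ceh-12 had 62.2 pooled, 24.2 in replicate 1 and 37.7 in replicate 2, at a summit 1202 bp downstream of the gene and 433 bp from the start of col-54. The homeobox gene vab-7 had 57.3 pooled and 35.4 in replicate 2 at an intronic summit with no match in replicate 1. For fax-1, which encodes a nuclear receptor, the values were 55.6 pooled, 30.5 in replicate 1 and 36.9 in replicate 2, in a coding exon. At the tagged gene itself, ceh-24, the highest pooled peak within 5000 bp had 67.8 (rank 1043), with a highest peak of 50.2 in replicate 1 (rank 405) and 37.6 in replicate 2 (rank 1658), above all 7 genes in the pooled list and in replicate 1 and below unc-17 and cha-1 in replicate 2.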

How the data were processed

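Peak lists of ChIP-seq for CEH-24-GFP from 2 biological replicates were used. Each replicate and the pool of both have, per the file headers, a list of peaks and background, derived from the alignments with 1 control file common to all, and an optimal list was derived from these 3. The aligner and its version, and the peak caller, were not stated in the labels or headers used. For every peak the signal value and the −log10 q-value are as deposited by the authors, and q was computed from the latter. Lists on ce11 were used. No peak end exceeded a chromosome length of the reference WBcel235. Summits are start plus offset, written 1-based. Ranks follow the signal within 1 list, since its scale differs between lists. Annotation was Ensembl release 115, and sequence and build were RefSeq WBcel235, read with Python 3.11.15, numpy 2.4.6, pandas 2.3.3 and matplotlib 3.10.9. A pooled peak was found in a replicate where at least 1 bp overlapped, and the overlapping replicate peak with the highest signal is given. Overlap counting was tested on simulated data. Words were counted on either strand in 201 bp centred on a summit. The COE palindrome and the ncRNA genes were examined after the peaks had been seen. No tests were run, and counts stand beside those over all protein-coding genes or pooled peaks. Each replicate comes from its own biological sample, and without read depth no error can be given for the signal of a peak. The genes and the 2 further lists were chosen with earlier results of these data known. Named were the 7 genes with their 3 highest pooled peaks and any among the 3000 highest, ceh-24 and the 4 highest genes of each further list, and other peaks of the 7 genes were chosen after their values were seen. Alternative flanks, overlap rules, q thresholds, windows, the core AAGTG and single replicates were tried.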

Additional observations from a re-analysis of the deposited data

How the results depend on the processing

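No paired analysis was possible because the samples form 1 group and no result comes from a test. With flanks of 1000 and 2000 bp, 23 and 25 pooled peaks remained near the 7 genes. The number of pooled peaks found in both replicates was 6 with summits within 100 bp and 13 with at least 50% of each peak shared. The share of all pooled peaks under the 50% rule is not given here, so the 13 does not set them apart. Where a single replicate was required, the number found was 24 with replicate 1, against 70% of all pooled peaks, and 25 with replicate 2, against 63.3%. A flank of 10000 bp gave 1 gene with an optimal peak, ttx-3. The same count from the 276 highest peaks of a single replicate was 0 to 2, and the count at a q-value of 0.05 or less in a single replicate was also 0 to 2. In each case the higher number came from replicate 2, where unc-17 and cha-1 share 1 peak. At pooled q thresholds of 0.01 and 0.1 the count was 0. The site TNAAGTG was found at 3 peaks within 50 bp (8.82%, against 4.38% of all pooled peaks) and at 10 within 250 bp (29.4%, against 21.5%). The core AAGTG was at 16 within 100 bp (47.1%, against 36%). The cause of these shifts, beyond the wider or narrower windows and fewer replicates, was not tested. With a flank of 1000 bp the highest pooled peak of lim-4 was the intronic one. The rank of the highest peak, as a percent of its list, was compared with 1 SD of the values of the 2 replicates. It moved by less for all 7 genes with a flank of 1000 bp, for 3 with replicate 2 alone and for 2 with replicate 1 alone. The 3 include unc-17 and cha-1, which share 1 peak. Genes whose replicates differ most have the widest limit, such as unc-17 (42.96% and 0.946%), so the single-replicate counts do not measure agreement between replicates. The unknown depth limits every value.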
